A study of Mus musculus with 24 samples.

Results

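Fos, Fosb, Fosl2, Jun, Junb and Jund encode subunits of the transcription factor AP-1. They were chosen by name, with earlier results of these data known, and are 6 of the 28859 genes of the deposited counts. All 6 passed the filter on low counts, among 18060 genes tested. The remaining family gene, Fosl1 (Fra-1), was not among those chosen and did not pass the filter, with 0 to 9 counts in CSDS libraries and 0 to 7 in controls. RNA was sequenced from the lateral septum (LS), a forebrain region between the lateral ventricles, of male C57BL/6J mice labelled as 8 to 14 weeks old and 8 weeks old at housing. In chronic social defeat stress (CSDS), a mouse met an aggressive CD-1 mouse for 10 min a day and was then kept apart from it by a plexiglass barrier, in a schedule of 10 days. The 8 groups were CSDS mice of day 1, day 4, day 7 and day 10 and undefeated controls of day 1, day 4, day 7 and day 10, with 3 libraries in each group and 24 in all. The controls were housed in the same way without defeat, and the labels name no transgene or drug in any group. The labels do not say that each library is a separate animal, so the p-values measure the spread between libraries, and the time from the last session to tissue collection is not given in the sources used here. Each day has its own controls, but days also differ in age and in any batch, which cannot be told apart from the day itself.

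AP-1 binds DNA as a pair of proteins joined by leucine zippers. Fos proteins do not pair with each other and need a Jun partner, whereas Jun proteins can also pair among themselves. Fos, Fosb, Junb and Jun are immediate early genes: in neurons, firing and calcium entry switch on their transcription within minutes through factors such as CREB and SRF, and the mRNA is short-lived. Jund is made more evenly in resting cells. Fosl2 (Fra-2) rises more slowly than Fos, and Fosb gives rise to the stable truncated protein delta FosB, which builds up in the forebrain under repeated stimulation. Counts per gene do not separate the 2 Fosb forms.

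The sequences around the transcription starts of Fos, Fosb, Junb and Jun are shown because these inducible genes hold letters that CREB and AP-1 proteins are known to bind. They come from RefSeq on build GRCm38.p6, an older build than the GRCm39 named for the counts, and run 5′ to 3′ on the strand of the gene, from 250 bases before the start to 50 bases after it. Fos is at chr12:85473640-85473939 on the plus strand, Fosb at chr7:19309996-19310295 on the minus strand, Junb at chr8:84978699-84978998 on the minus strand and Jun at chr4:95052173-95052472 on the minus strand. Capitals mark TGACG (the first letters of the cAMP response element TGACGTCA), TGACATCA (the AP-1 variant of the Jun promoter), TATAAA (the TATA box) and CCAAT.
Fos: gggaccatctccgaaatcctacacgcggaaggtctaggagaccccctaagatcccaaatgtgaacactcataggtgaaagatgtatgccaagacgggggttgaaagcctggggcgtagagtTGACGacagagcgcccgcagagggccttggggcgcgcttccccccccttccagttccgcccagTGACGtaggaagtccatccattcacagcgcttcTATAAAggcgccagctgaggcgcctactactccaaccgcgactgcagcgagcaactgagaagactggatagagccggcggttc
Fosb: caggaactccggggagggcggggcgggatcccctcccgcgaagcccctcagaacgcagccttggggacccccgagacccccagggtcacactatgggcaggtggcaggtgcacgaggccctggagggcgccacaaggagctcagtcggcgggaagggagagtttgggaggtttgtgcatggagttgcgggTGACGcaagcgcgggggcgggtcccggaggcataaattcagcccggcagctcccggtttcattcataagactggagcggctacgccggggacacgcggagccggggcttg
Junb: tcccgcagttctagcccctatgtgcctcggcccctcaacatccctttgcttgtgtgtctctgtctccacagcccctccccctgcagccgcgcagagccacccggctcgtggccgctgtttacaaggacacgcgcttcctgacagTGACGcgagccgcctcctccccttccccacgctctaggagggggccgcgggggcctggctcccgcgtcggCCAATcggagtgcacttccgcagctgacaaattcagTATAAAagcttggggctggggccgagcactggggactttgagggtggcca
Jun: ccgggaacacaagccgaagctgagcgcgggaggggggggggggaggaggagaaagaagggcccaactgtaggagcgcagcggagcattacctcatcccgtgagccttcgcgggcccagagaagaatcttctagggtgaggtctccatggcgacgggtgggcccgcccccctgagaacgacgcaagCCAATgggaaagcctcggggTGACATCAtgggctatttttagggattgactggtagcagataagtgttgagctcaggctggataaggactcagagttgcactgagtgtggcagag
Each motif was searched on both strands, and all matches shown were on the strand of the gene. Positions are counted from the annotated start. TGACG stood at -129 and -66 in Fos, at -60 in Fosb and at -106 in Junb. Among 32851 mouse promoters of the same length, 20.8% held TGACG, which also counts every full TGACGTCA (1.79% of promoters). TGACATCA stood at -45 in Jun, with CCAAT at -65. TGACATCA was in 3.62% of all promoters, CCAAT in 37.4% and TATAAA in 13.6%. TATAAA stood at -33 in Fos and at position 1 in Junb, which also held CCAAT at -36. None of the 6 windows held TGACGTCA, the AP-1 site TGACTCA (5.2% of promoters) or the CArG box bound by SRF (1.63%). The windows of Fosl2 and Jund held none of these letters, which says nothing of sequence further away. A match is a description of the letters, not of a bound site. No other RefSeq gene overlapped any of the 6 genes in that annotation.

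The libraries held 31182747 to 41205354 counts (median 38196571), and the 6 genes had between 122 and 5071 counts in each library. The 16 markers of lateral septum neurons, among them Gad1, Gad2 and Trpc4, summed to between 3429 and 5151 CPM (counts scaled to library size with TMM factors) in the 24 libraries, and no gene of any marker list was at 0 throughout. Day 10 control replicate 1 stood apart. It had the lowest total count, 1 unnamed locus (LOC118568312) held 6.03% of its counts, and it had the lowest Fos, Fosb, Fosl2 and Junb level of the day 10 controls, so day 10 values of these 4 genes are also given without it. Mitochondrially encoded genes held 6.11% to 7.66% of the counts on days 4 and 7, against 3.28% to 4.92% on days 1 and 10.

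Per transcript length, Jund was the most abundant member. On the deposited FPKM scale (fragments per kilobase of gene, scaled to sequencing depth), the mean over all 24 libraries was 28.6 for Jund, 15.6 for Junb, 13.8 for Jun, 8.57 for Fos, 4.67 for Fosl2 and 2.82 for Fosb. Ranges over libraries overlapped between each neighbour in this order, from 19.8 to 45.7 FPKM for Jund against 6.26 to 38.1 for Junb at the top and from 1.98 to 11.2 for Fosl2 against 0.831 to 7.73 for Fosb at the bottom. The sum of the 6 genes was highest in the day 1 controls and lowest on day 7 of CSDS. It averaged 97.5 ± 11.7 FPKM in CSDS libraries and 131 ± 14 in controls on day 1 (SD, n = 3 each, as below), 52.9 ± 1.4 and 72.2 ± 5.0 on day 4, 47.0 ± 3.2 and 55.3 ± 4.5 on day 7, and 72.1 ± 2.9 and 64.7 ± 11.6 on day 10. Fos made up 8.42% of that sum in CSDS libraries against 16.6% in controls on day 1, 8.74% against 14.4% on day 4, 8.35% against 11.6% on day 7, and 10.2% against 8.39% on day 10. Jund made up 44.0% in CSDS libraries against 31.9% in controls on day 1, and 41.9% against 45.4% on day 10.

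**Figure D1:**
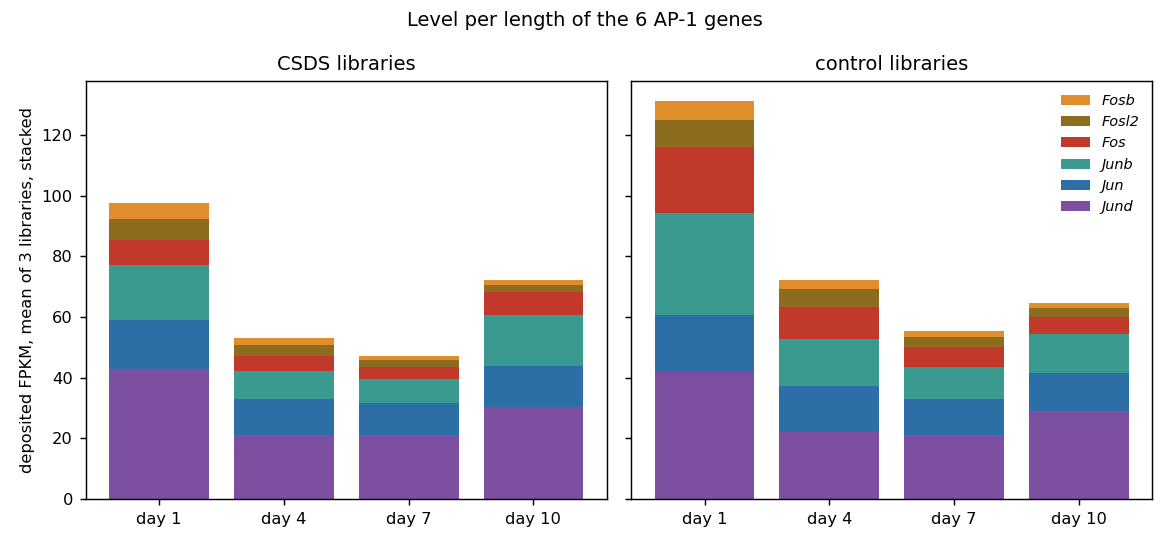
Deposited FPKM of the 6 AP-1 genes, stacked, as the mean of 3 libraries for each day (x axis), in CSDS libraries (left) and control libraries (right); spread is not drawn. The stack is tallest in the day 1 controls, at 131 FPKM, and shortest on day 7 of CSDS, at 47.0 FPKM, and Jund is the largest layer in all 8 groups.

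The daily comparison asks how the level after 1, 4, 7 or 10 days of CSDS compares with undefeated mice of the same day. Fos, the classical marker of recently active neurons, lay below its controls in every library on days 1, 4 and 7, and mixed with them on day 10. On day 1 it stood at 18.3, 19.3 and 13.1 CPM in CSDS libraries, against 56.3, 47.2 and 33.1 CPM in controls. On day 4 it stood at 8.89, 9.77 and 10.6 CPM in CSDS libraries, against 26.6, 20.6 and 19.5 CPM in controls. On day 7 it stood at 8.99, 7.04 and 8.82 CPM in CSDS libraries, against 11.2, 10.1 and 19.7 CPM in controls. The smallest of these gaps was that of day 7, where 1 control library lay well above the other 2. On day 10 Fos stood at 19.5, 11.4 and 16.5 CPM in CSDS libraries, against 6.77, 11.6 and 17.2 CPM in controls. These ranges overlapped, with a CSDS library highest and a control lowest. The log2 fold change (CSDS minus control) was -1.43 at day 1 (SE 0.28, 95% interval -2.01 to -0.85, adjusted p = 0.226), or a fold of 0.371, in edgeR's quasi-likelihood test with Benjamini-Hochberg adjustment over 18060 genes, as for all tests below. It was -1.19 at day 4 (SE 0.29, adjusted p = 0.159), -0.72 at day 7 (SE 0.29, adjusted p = 0.999) and 0.40 at day 10 (SE 0.28, adjusted p = 0.551), so no single day passed the threshold of an adjusted p under 0.05. DESeq2 called Fos on day 1 (adjusted p = 0.0123) and on day 4 (adjusted p = 0.0372), and edgeR without a filter on low counts called it on day 1 (adjusted p = 0.0363). Without day 7 control replicate 3, the high one, the day 7 difference of Fos was -0.37 (adjusted p = 0.910). Without day 10 control replicate 1, the day 10 difference was 0.12 (adjusted p = 0.900). In bulk tissue, fewer cells that express a gene and less RNA per cell cannot be told apart.

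Fosb and Fosl2 lay below their controls in every library on days 4 and 7 and overlapped with them on days 1 and 10. Fosb stood at 22.4, 20.5 and 13.4 CPM in CSDS libraries against 16.7, 29.2 and 22.9 CPM in controls on day 1, and at 9.64, 6.10 and 8.30 CPM against 11.5, 11.6 and 9.78 CPM on day 4. On day 7 it stood at 5.17, 4.48 and 3.14 CPM in CSDS libraries against 9.36, 6.07 and 5.86 CPM in controls, and on day 10 at 6.16, 5.50 and 5.73 CPM against 4.47, 8.27 and 7.56 CPM. On day 1 the lowest library was a CSDS one and the highest a control. The log2 fold change of Fosb was -0.29 at day 1 (adjusted p = 0.806), -0.46 at day 4 (adjusted p = 0.685), -0.74 at day 7 (SE 0.26, adjusted p = 0.997) and -0.23 at day 10 (adjusted p = 0.716). With choroid plexus and cortex marker scores as covariates, the day 1 value of Fosb was 0.03. With 1 library left out, Fosb ran from -0.46 to -0.07 on day 1 and from -0.61 to -0.29 on day 4, and on day 10 it was -0.46 without day 10 control replicate 1. Fosl2 stood at 54.8, 55.8 and 35.6 CPM in CSDS libraries against 46.0, 79.3 and 64.8 CPM in controls on day 1, and at 30.4, 25.3 and 25.5 CPM against 42.9, 45.3 and 41.1 CPM on day 4. On day 7 it stood at 20.4, 13.8 and 18.4 CPM in CSDS libraries against 31.5, 22.1 and 22.5 CPM in controls, and on day 10 at 15.4, 19.1 and 19.7 CPM against 15.0, 24.1 and 21.7 CPM. The day 4 arms stood furthest apart, with the highest CSDS library at 30.4 CPM and the lowest control at 41.1 CPM. The log2 fold change of Fosl2 was -0.38 at day 1 (adjusted p = 0.668), -0.67 at day 4 (SE 0.20, adjusted p = 0.319), -0.53 at day 7 (SE 0.21, adjusted p = 0.999) and -0.17 at day 10 (adjusted p = 0.747). With 1 library left out, Fosl2 ran from -0.56 to -0.18 on day 1, and on day 10 it was -0.35 without day 10 control replicate 1.

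Junb, an AP-1 subunit that is induced together with Fos but activates transcription more weakly than Jun on its own, lay below its controls on the same days as Fos. It stood at 31.8, 37.3 and 26.8 CPM in CSDS libraries on day 1, against 67.9, 67.2 and 47.1 CPM in controls, and at 15.3, 18.9 and 17.5 CPM on day 4, against 33.5, 25.5 and 27.8 CPM in controls. On day 7 Junb stood at 15.5, 11.4 and 17.1 CPM in CSDS libraries, against 21.5, 17.3 and 20.1 CPM in controls. The 3 CSDS libraries lay below the 3 controls on each of these days, by a narrow margin on day 7. On day 10 it stood at 36.9, 28.5 and 29.9 CPM in CSDS libraries, against 12.2, 28.3 and 32.2 CPM in controls, with overlap and 1 control far below the rest. The log2 fold change of Junb was -0.93 at day 1 (SE 0.24, 95% interval -1.42 to -0.44, adjusted p = 0.323), -0.75 at day 4 (SE 0.24, adjusted p = 0.352), -0.43 at day 7 (adjusted p = 0.999) and 0.39 at day 10 (adjusted p = 0.497). Without day 10 control replicate 1 its day 10 value was 0.06 (adjusted p = 0.924).

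Jun, the strongest activator of the family and the common partner of Fos, moved over a narrow range. On day 1 it stood at 47.8, 60.4 and 44.3 CPM in CSDS libraries, against 56.2, 63.9 and 58.6 CPM in controls, and on day 4 at 39.0, 36.0 and 38.0 CPM, against 50.3, 44.5 and 52.5 CPM in controls. On day 7 it stood at 34.7, 32.1 and 32.3 CPM in CSDS libraries against 39.0, 36.1 and 38.4 CPM in controls, and on day 10 at 40.8, 47.4 and 44.7 CPM against 40.5, 38.7 and 41.2 CPM. Its CSDS libraries lay below all controls on days 4 and 7. The log2 fold change of Jun was -0.23 at day 1 (adjusted p = 0.601), -0.38 at day 4 (SE 0.09, adjusted p = 0.155), -0.20 at day 7 (adjusted p = 0.999) and 0.14 at day 10 (adjusted p = 0.518). DESeq2 called Jun on day 4 (adjusted p = 0.0268), as did edgeR with the marker scores as covariates (adjusted p = 0.0382), which also called Fosl2 on that day (adjusted p = 0.0446).

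Jund, which is made in most cells without stimulation, did not separate CSDS from control on any day. It stood at 115, 131 and 112 CPM in CSDS libraries against 118, 125 and 111 CPM in controls on day 1, and at 58.8, 59.7 and 64.3 CPM against 62.9, 63.0 and 64.8 CPM on day 4. On day 7 it stood at 62.4, 57.1 and 62.5 CPM in CSDS libraries against 68.4, 59.4 and 57.1 CPM in controls, and on day 10 at 87.4, 95.8 and 82.1 CPM against 82.4, 85.6 and 84.0 CPM. The arms overlapped on all 4 days, while every library of days 1 and 10 stood above every library of days 4 and 7. The log2 fold change of Jund was 0.01 at day 1 (95% interval -0.14 to 0.16), -0.06 at day 4 (-0.22 to 0.09), -0.02 at day 7 (-0.18 to 0.13) and 0.07 at day 10 (-0.08 to 0.23). Differences of the size seen for Fos on days 1 and 4 lie outside these intervals.

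**Figure D2:**
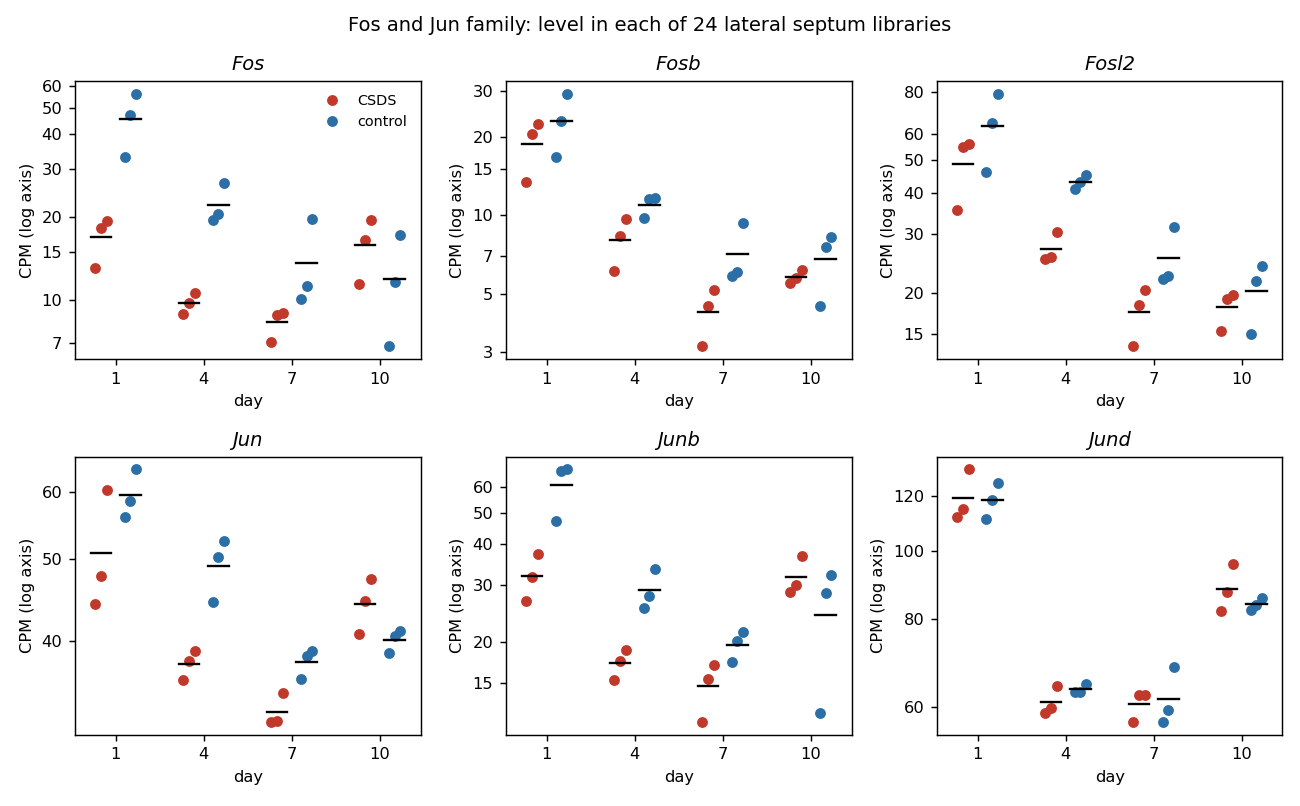
Level of each member (CPM, log axis, scaled separately in each panel) in the 24 libraries by day, with CSDS libraries in red to the left of control libraries in blue; a point is 1 library and a black line the mean of 3. The red points of Fos and Junb lie below the blue ones on days 1, 4 and 7 and overlap with them on day 10, while those of Jund overlap with the blue ones on every day.

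edgeR called none of the 6 genes on any single day, in a background of called genes of 0.00554% (1 gene) at day 1, 0.111% at day 4, 0.00554% at day 7 and 0.166% at day 10. DESeq2 called 1 member on day 1, 2 on day 4 and 0 on days 7 and 10. It called 25, 72, 11 and 135 of all genes on days 1, 4, 7 and 10. At an unadjusted p under 0.05 there were 3 members on day 1 (7.88% of all genes), 4 on day 4 (8.33%), 4 on day 7 (4.28%) and 0 on day 10 (12.8%). All 3 CSDS libraries lay below all 3 controls for 2 members on day 1 (6.26% of all genes), 5 on day 4 (8.41%), 5 on day 7 (4.88%) and 0 on day 10 (7.17%). The 2 members of day 1 were Fos and Junb, and Jund was the member left out on days 4 and 7. The median log2 fold change of the 6 was -0.33 at day 1, -0.56 at day 4, -0.48 at day 7 and 0.11 at day 10, where that of all genes was between -0.01 and 0.02.

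Averaged over the 4 days, Fos was the only member called. Its level in CSDS libraries fell by 0.73 as a log2 fold change (SE 0.14, 95% interval -1.03 to -0.44, adjusted p = 0.0374, edgeR quasi-likelihood), a fold of 0.601, in a background of 0.116% of genes called (21). The average hides a day 10 value above 0. The call is close to the threshold. It was kept by DESeq2 (adjusted p = 0.00204) and RLE scaling. It was lost with limma on log2 FPKM (adjusted p of at least 0.0771) and with the marker scores as covariates (adjusted p = 0.0501). With the replicate numbers as a block it was lost too (adjusted p = 0.0573). It was also lost in 19 of 24 runs that left out 1 library (log2 values -0.80 to -0.65, adjusted p up to 0.113). The 5 exceptions left out replicate 3 of the day 1 controls, replicate 1 or 2 of the day 7 controls, or replicate 1 of either day 10 group. The other averages were -0.44 for Fosl2 (SE 0.10, adjusted p = 0.163), -0.43 for Fosb (SE 0.13, adjusted p = 0.359), -0.43 for Junb (SE 0.12, adjusted p = 0.347), -0.17 for Jun (SE 0.05, adjusted p = 0.322) and 0.00 for Jund (SE 0.04, adjusted p = 1.00). At an unadjusted p under 0.05 there were 5 of 6 members, all but Jund, against 6.47% of all genes. DESeq2 also called Fosl2 (adjusted p = 0.00787), and without day 10 control replicate 1 edgeR also called Junb (-0.51, adjusted p = 0.00749).

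**Figure D3:**
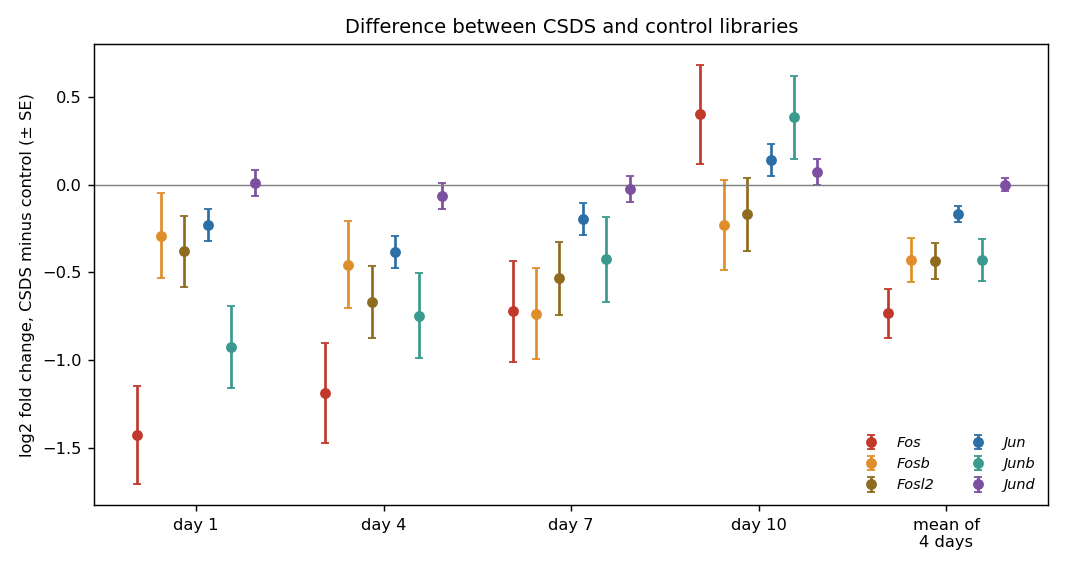
Log2 fold change (CSDS minus control, y axis) of the 6 genes on each day and averaged over the 4 days (x axis); points are estimates of the edgeR fit and bars 1 standard error. Fos is lowest on days 1 and 4, at -1.43 and -1.19, and above 0 on day 10, at 0.40, while Jund runs from -0.06 on day 4 to 0.07 on day 10.

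A change of the CSDS response with time was tested over all 4 days and, after the data had been seen, as each later day minus day 1. The F test over 4 days called no member and 0.0221% of all genes (4 genes), with an adjusted p of 0.164 for Fos and 0.251 for Jun and for Junb (edgeR). Fos, Jun and Junb were past an unadjusted p of 0.05 in it, 3 of 6 members against 11% of all genes, and DESeq2 called Fos (adjusted p = 0.0260). Fos had a day 10 response 1.83 above its day 1 response (SE 0.40, 95% interval 1.01 to 2.66, adjusted p = 0.0400), from the values of 0.40 and -1.43 given above, and Fos was the only member called, against 0.449% of all genes. This difference was 1.31 for Junb (SE 0.33, adjusted p = 0.0751), 0.37 for Jun (SE 0.13, adjusted p = 0.165), 0.21 for Fosl2 (adjusted p = 0.750), 0.06 for Fosb (adjusted p = 0.950) and 0.06 for Jund (adjusted p = 0.801). DESeq2 also called Junb (adjusted p = 0.0337), as did edgeR without a filter on low counts (1.31, adjusted p = 0.0372) and without day 10 control replicate 3 (1.55, adjusted p = 0.0390). Unadjusted, 3 of 6 members were past 0.05, against 17.2% of all genes. The Fos call was lost with the marker scores as covariates (1.86, adjusted p = 0.186) and with limma without a filter (1.68, adjusted p = 0.0983). It was lost too with the replicate numbers as a block (1.82, adjusted p = 0.0648). It was also lost in 8 of 12 runs that left out 1 library of these days (values 1.55 to 2.18, adjusted p up to 0.121). The 4 runs that kept it were without replicate 2 of either CSDS group or replicate 3 of either control group. Without day 10 control replicate 1, the value was 1.55 for Fos (adjusted p = 0.0703), 0.98 for Junb (adjusted p = 0.0827), 0.03 for Fosl2 and -0.17 for Fosb. No member was called for day 4 minus day 1 or day 7 minus day 1, nor was any other gene tested (0% called in both), and 0 members were past an unadjusted p of 0.05 (8.15% and 5.13% of all genes). DESeq2 called no member in these 2 comparisons either.

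Far more genes were called between days than between arms. Among CSDS libraries the 4 days differed for all 6 members (edgeR F test, adjusted p between 3.43e-09 for Jund and 0.00987 for Fos), in a background of 47.9% of all genes. Among controls all 6 were called too (adjusted p between 1.82e-08 for Jund and 5e-05 for Junb), in a background of 40.7%. In CSDS libraries, 6 members were called lower on day 4 than on day 1, 6 on day 7 and 3 on day 10. Of 18060 genes, 2616, 2764 and 2925 were called lower there, and 24.6%, 26.4% and 27.4% in either direction. In controls, 5 members were called lower on day 4 than on day 1, 6 on day 7 and 6 on day 10. There 2014, 2311 and 3209 of the 18060 genes were called lower, and 16.6%, 19.4% and 27.6% in either direction. These comparisons share their day 1 libraries.

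On day 10, Fos and Junb were called lower than on day 1 in controls and not in CSDS libraries. In CSDS libraries Fos fell by 0.79 on the log2 scale on day 4 and by 1.03 on day 7 relative to day 1, but its day 10 value was -0.10 (SE 0.28, adjusted p = 0.837). In controls Fos fell by 1.03 on day 4, by 1.74 on day 7 and by 1.93 at day 10 (adjusted p = 5.03e-05), a fold of 0.262. Junb had a day 10 value of -0.01 in CSDS libraries (adjusted p = 0.983), whereas in controls it fell by 1.32 at day 10 (adjusted p = 0.000363). Without day 10 control replicate 1 the control differences of day 10 minus day 1 were -1.64 for Fos and -0.99 for Junb. Jun had a day 10 value of -0.20 in CSDS libraries (adjusted p = 0.110) and fell by 0.57 in controls (adjusted p = 0.000112). The value of Jun in CSDS libraries was called by limma (-0.26 to -0.24, adjusted p 0.0258 to 0.0465), with the marker scores as covariates (-0.23, adjusted p = 0.0372) and without day 1 CSDS replicate 3 (-0.28, adjusted p = 0.0336). The difference between the arms is the response on day 10 minus day 1 given above, which edgeR called for Fos only. In that control comparison the choroid plexus markers summed to 5053 to 14785 CPM on day 10 against 290 to 1097 CPM on day 1, with 10 of 20 called by edgeR (27.6% of all genes) and 17 by DESeq2. With the cortex and choroid plexus marker scores as covariates the control value of day 10 minus day 1 was -1.96 for Fos (adjusted p = 0.000228) and -1.21 for Junb (adjusted p = 0.00313).

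Fosb and Fosl2 fell in both arms and stayed low. In CSDS libraries the log2 difference from day 1 on days 4, 7 and 10 was -1.23, -2.14 and -1.69 for Fosb and -0.85, -1.47 and -1.43 for Fosl2, all called. In controls it was -1.06, -1.69 and -1.76 for Fosb, all called, and -1.32 on day 7 and -1.64 on day 10 for Fosl2, whose day 4 value of -0.56 was not called (adjusted p = 0.0642). Jund was lowest on days 4 and 7 and came back in part on day 10, in both arms. Its log2 difference from day 1 was -0.97, -0.98 and -0.43 in CSDS libraries and -0.90, -0.94 and -0.49 in controls on days 4, 7 and 10. Over the 24 libraries the Pearson correlation of log2 CPM with the mitochondrial share of counts was -0.81 for Jund, -0.49 for Junb, -0.48 for Jun, -0.33 for Fosb, -0.26 for Fos and -0.13 for Fosl2; the points share day and library, and the part of the mitochondrial share in these results was not tested. Some of these calls rest on single libraries. The Fos call of day 4 in CSDS libraries was lost without 5 of 6 libraries, all but day 1 CSDS replicate 3 (adjusted p up to 0.167), and with DESeq2 (adjusted p = 0.0515). That of Jun in day 4 controls was lost without any of 5 libraries, all but day 4 control replicate 3 (up to 0.222), and that of Fos without day 1 control replicates 1 or 2 or day 4 control replicate 3 (up to 0.0840). The Fos call of day 7 in CSDS libraries was lost without day 1 or day 7 CSDS replicate 2 (up to 0.0620), and that of Junb on day 4 without day 1 CSDS replicate 2 (0.0589).

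**Figure D4:**
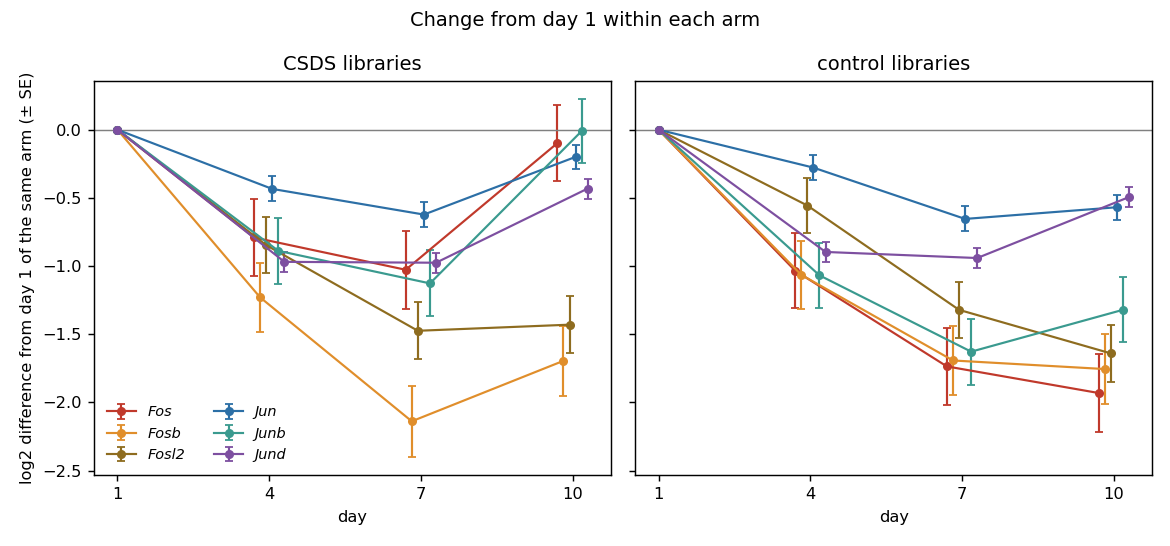
Log2 difference from day 1 of the same arm (y axis, edgeR estimates with bars of 1 standard error) against day (x axis) for the 6 genes, in CSDS libraries (left) and control libraries (right). In CSDS libraries the lines of Fos, Junb and Jun come back to between -0.20 and -0.01 on day 10, while in controls they lie between -1.93 and -0.57.

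Fos with Junb and Fosb with Fosl2 were the most alike between libraries. Over the 24 libraries, the Pearson correlation of log2 CPM was 0.93 between Fos and Junb and 0.95 between Fosb and Fosl2, and the lowest was 0.54, between Fosl2 and Jund. These values contain the differences between the 8 groups. For deviations from the group means, the correlation was 0.81 between Fos and Junb and 0.78 between Fosb and Fosl2, and the other pairs lay between 0.02 (Fos and Jund) and 0.57 (Jun and Jund), among them 0.51 between Fosl2 and Jun and 0.10 between Fos and Jun. The points share library, depth and tissue composition, and the correlations are given as a description. Among 14424 genes with a mean of at least 1 CPM, those most like Fos over the 24 libraries were Egr2 (r = 0.93), Junb (0.93) and Arc (0.93), a synaptic immediate early gene. For Junb they were Arc (0.96), Egr4 (0.93) and Fos (0.93). For Fosb they were Fosl2 (0.95), Hif1an (0.94) and Nfil3 (0.92), and for Fosl2 they were Hif1an (0.95), Fosb (0.95) and Nr4a3 (0.94). Hif1an hydroxylates HIF1A in the presence of oxygen, Nfil3 is a bZIP repressor, and Nr4a3 is an inducible orphan nuclear receptor. Jun was most like Egr1 (0.93), Mvd (0.91), an enzyme of cholesterol synthesis, and Glipr2 (0.90). Jund was most like Oaz1 (0.99), Pcsk1n (0.98) and Rabac1 (0.98), none of which is an immediate early gene.

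**Figure D5:**
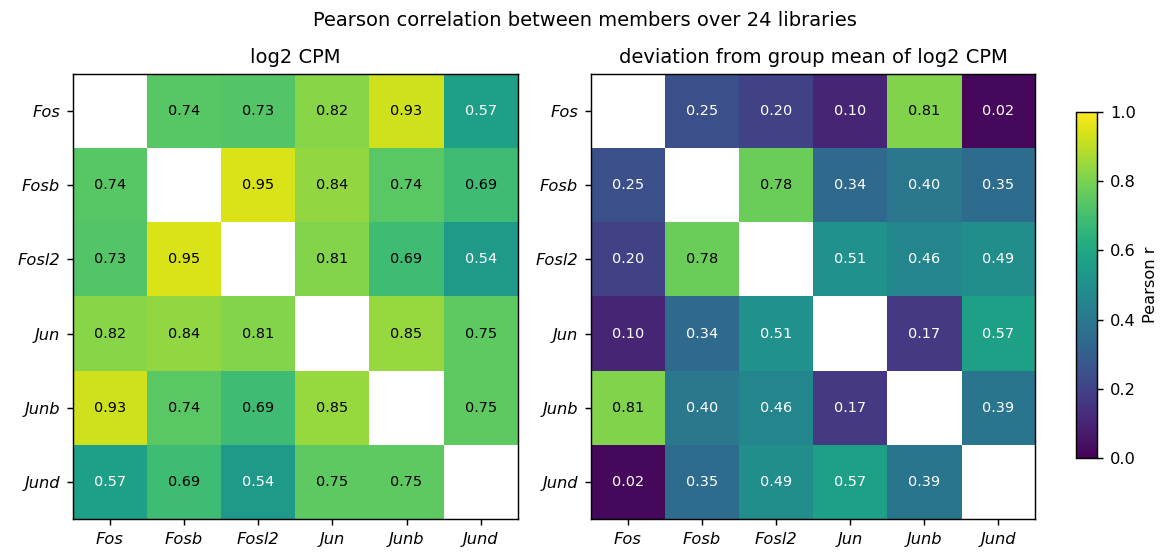
Pearson correlation between each pair of members over 24 libraries, of log2 CPM (left) and of deviations from the group mean of log2 CPM (right); color gives r from 0 to 1. Fos with Junb (0.93 and 0.81) and Fosb with Fosl2 (0.95 and 0.78) are the highest pairs in both panels.

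Other genes of the AP-1 pathway were counted in lists. Of 40 other immediate early genes, all tested, edgeR called 1 on day 1, 1 on day 4 and none on days 7 and 10. At an unadjusted p under 0.05 there were 22, 13, 10 and 8 on days 1, 4, 7 and 10, beside 7.88%, 8.33%, 4.28% and 12.8% of all genes. DESeq2 called 5, 6, 0 and 0 of the list, and 25, 72, 11 and 135 of all genes. Egr2, a zinc finger transcription factor, fell by 1.60 at day 1 (SE 0.24, adjusted p = 0.0209), and Egr1, its relative, fell by 0.74 at day 4 (SE 0.12, adjusted p = 0.00684). Of the 40, 35 had values below 0 at day 1, 29 at day 4, 33 at day 7 and 10 at day 10, with medians of -0.38, -0.25, -0.21 and 0.11. Of all genes, 52.0%, 49.5%, 49.2% and 46.3% had values below 0 on these days. Averaged over days, Egr2 fell by 0.75 (adjusted p = 0.00779) and Egr1 by 0.32 (adjusted p = 0.0187), the 2 called by edgeR, beside 0.116% of all genes. DESeq2 called 9 of the list and 57 of all genes. The day 10 values of both were above 0, at 0.36 for Egr2 (adjusted p = 0.535) and 0.34 for Egr1 (adjusted p = 0.252). On day 10 minus day 1, the response was 0.95 for Egr1 (adjusted p = 0.0116) and 1.96 for Egr2 (adjusted p = 0.0118), and 36 of 40 genes had values above 0. In this comparison 46.2% of all genes had values below 0. Egr1 and Egr2 were called by edgeR and 10 genes of the list by DESeq2, where edgeR called 0.449% of all genes and DESeq2 called 416 genes. In CSDS libraries 14, 21 and 8 of the 40 were lower on days 4, 7 and 10 than on day 1, and in controls 19, 25 and 26 were. Of 18060 genes, 2616, 2764 and 2925 were called lower on these days in CSDS libraries and 2014, 2311 and 3209 in controls. In either direction, 24.6%, 26.4% and 27.4% of all genes were called in CSDS libraries and 16.6%, 19.4% and 27.6% in controls. The day 10 count in CSDS libraries, 8 of 40, is close to the share of all genes called lower.

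A list of 14 other bZIP genes held Fosl1 beside dimer partners of AP-1 proteins and their relatives; 11 were tested, since Fosl1, Batf and Batf2 did not pass the filter. edgeR called none on any day, with 2, 3, 2 and 1 past an unadjusted p of 0.05 on days 1, 4, 7 and 10. Of all genes, 7.88%, 8.33%, 4.28% and 12.8% were past it on these days. DESeq2 called 2 of the list on day 4, when it called 72 of all genes, and none on the other days. The list medians were between -0.03 and 0.01. Atf3, a stress-inducible partner of Jun proteins, fell by 0.73 averaged over the 4 days (SE 0.15, adjusted p = 0.0498), at the edge of the threshold. edgeR called 1 of the 11 in that comparison, beside 0.116% of all genes. The dependence of the Atf3 call on single libraries was not examined. Its daily values were -0.60 at day 1 (adjusted p = 0.630), -1.33 at day 4 (adjusted p = 0.111), -1.02 at day 7 (adjusted p = 0.810) and 0.01 at day 10 (adjusted p = 0.994). Upstream, 31 kinases and transcription factors that act on the Fos and Jun promoters were tested, and neither edgeR nor DESeq2 called any on any day. Past an unadjusted p of 0.05 there were 4, 2, 0 and 5 on days 1, 4, 7 and 10, beside 7.88%, 8.33%, 4.28% and 12.8% of all genes. Crem, which encodes inducible cAMP repressors, stood at -0.43 at day 10 (adjusted p = 0.257) and Map2k2, which encodes the ERK kinase MEK2, at -0.24 at day 4 (adjusted p = 0.315). Between days, 23 of the 31 differed among CSDS libraries and 12 among controls, where 47.9% and 40.7% of all genes did; the control count is near that share. Srf, the factor of the CArG box, fell by 0.53 on day 4 and by 0.68 on day 7 relative to day 1 in CSDS libraries, and by 0.50, 0.71 and 0.54 on days 4, 7 and 10 in controls. Creb1 fell by 0.55 on day 10 in CSDS libraries and by 0.57 in controls. Mef2a, which rose instead, was higher by 0.61 on day 4 and by 0.53 on day 7 in CSDS libraries and by 0.35 and 0.36 in controls. Of 30 genes listed as late or AP-1 regulated, 29 were tested, and neither edgeR nor DESeq2 called any on any day or on average, with 3 past an unadjusted p of 0.05 each time. The same shares of all genes apply to the single days, and 6.47% of all genes were past it on average. Ccnd1, a cell cycle regulator, stood at -0.27 at day 1 (adjusted p = 0.537) and Vgf, a secreted neuropeptide precursor, at -0.27 at day 4 (adjusted p = 0.410).

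Markers of neighbouring tissue moved with some of these results. The 20 markers of cortex and hippocampus neurons summed to 746 to 1322 CPM in CSDS libraries against 1114 to 1724 CPM in controls on day 1, when 17 of 20 had values below 0 (median -0.67). Slc17a7, their vesicular glutamate transporter, ran from 34.0 to 319 CPM in CSDS libraries and from 201 to 524 CPM in controls on that day. The library at 34.0 CPM, day 1 CSDS replicate 3, had the lowest Fos, Fosb, Fosl2, Jun and Junb level of the 6 libraries of day 1. On day 7, 18 of the 20 had values below 0 (median -0.64), and on days 4 and 10 15 of 20 were above 0 (medians 0.25 and 0.39). Of all genes, 52.0%, 49.5%, 49.2% and 46.3% had values below 0 on days 1, 4, 7 and 10. The 20 choroid plexus markers had medians of 3.01 at day 1, -1.27 at day 4, 0.72 at day 7 and -1.38 at day 10. Their sum ran from 358 to 13349 CPM in CSDS libraries and from 290 to 1097 CPM in controls on day 1, and Ttr, the transthyretin gene, ran from 5.01 to 8945 CPM over the 24 libraries. On day 1 Ttr stood at 7639, 16.6 and 376 CPM in CSDS libraries, against 438, 9.15 and 12.0 CPM in controls. There day 1 CSDS replicate 1 stood far above the rest. Striatal Ppp1r1b ran from 138 to 281 CPM in CSDS libraries and from 94.3 to 293 CPM in controls on day 1. The 8 blood cell markers, among them hemoglobin genes, summed to 10.5 to 22.7 CPM in CSDS libraries against 2.55 to 8.19 CPM in controls on day 4, and to 72.3 to 101 CPM against 2.80 to 7.35 CPM on day 7. These are the days on which all members but Jund lay below their controls. On day 1, when Fos and Junb lay below theirs, the blood sums overlapped. They ran from 4.41 to 9.56 CPM in CSDS libraries and from 3.28 to 10.3 CPM in controls. On day 10 the blood sum ran from 3.72 to 149 CPM in CSDS libraries and from 11.9 to 31.8 CPM in controls. edgeR called no marker of the cortex, choroid plexus, striatum or blood lists on any single day. DESeq2 called 3 blood markers on day 7, when it called 11 of all genes. Averaged over the 4 days, edgeR called 1 of the 8 blood markers and DESeq2 called 3, beside 21 and 57 of all genes. For the blood list 0, 5, 7 and 0 were past an unadjusted p of 0.05 on days 1, 4, 7 and 10, beside 7.88%, 8.33%, 4.28% and 12.8% of all genes. Between days, edgeR called all 10 microglia markers among controls and 9 among CSDS libraries, beside 40.7% and 47.9% of all genes. The microglia sum ran from 382 to 407 CPM in CSDS libraries and from 393 to 419 CPM in controls on day 10, and was lower in every library of the other days. With choroid plexus and cortex scores as covariates, Fos stood at -1.41 at day 1, -1.19 at day 4, -0.69 at day 7 and 0.45 at day 10. Junb stood at -0.81, -0.80, -0.31 and 0.34 on the same days, and Fosl2 at -0.09, -0.81, -0.27 and -0.29. Without covariates, Fos stood at -1.43, -1.19, -0.72 and 0.40 on these days, and Fosl2 at -0.38 on day 1. With the covariates the call of Fos in the mean of 4 days was lost (edgeR, adjusted p = 0.0501). The scores were made from the same libraries. Whether tissue composition underlies any of these values was not tested. The part of the striatum, blood and microglia markers in these results was not tested.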

How the data were processed

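Poly(A) RNA of 24 lateral septum libraries was sequenced as directional 150 bp read pairs, per the labels' protocols. The authors deposited raw counts per gene and FPKM values, each in a table of all libraries; fastp, HISAT2, HTSeq and the build GRCm39 are named in the submitters' processing notes, and whether counting used strand is not given in the sources used here. FPKM values served only for levels per length and for alternatives. Counts were fitted with edgeR 4.0.16 in R 4.3.3 (TMM scaling, filterByExpr, quasi-likelihood F tests, all 24 libraries, 8 group means, 16 residual degrees of freedom), and p-values were adjusted by the Benjamini-Hochberg method over 18060 genes, with calls at 0.05. Each standard error was derived from the estimate and its F statistic. Correlations used log2 CPM with a prior count of 2.

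Alternatives were DESeq2 1.42.0, RLE scaling, no filter, at least 1 CPM in 3 libraries, limma 3.58.1 on log2(FPKM + 1) or log2(FPKM + 0.1) with a filter of 0.5 FPKM in 3 libraries or none, marker scores as covariates, a replicate block, the libraries of 1 day alone, and leaving out each library. The test scripts were tested on simulated data. The members and gene lists were chosen with earlier results of these data known, and the comparisons of later days with day 1 in the response to CSDS were added after seeing the data. All members were named, with the 3 genes most correlated with each, and from each list at most 4 called genes lowest in p or, with none called, 2 at most. No 2 libraries were identical.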

Additional observations from a re-analysis of the deposited data

Results flagged for a closer look

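The response of Fos to CSDS differed between day 10 and day 1 by 1.83 on the log2 scale, in a test of the difference itself (edgeR quasi-likelihood, adjusted p = 0.0400). Fos stood at 0.40 (CSDS minus control) on day 10 and at -1.43 on day 1. Relative to day 1, Fos on day 10 stood at -0.10 in CSDS libraries (adjusted p = 0.837) and at -1.93 in controls (adjusted p = 5.03e-05, edgeR). Days also differ in age and in any batch. The comparison was added after the data had been seen. The F test over the 4 days did not call Fos (edgeR, adjusted p = 0.164). The difference between the responses was above 0 in every run that left out 1 library, from 1.55 to 2.18, and the call was lost in 8 of those 12 runs. With the replicate numbers as a block the value was 1.82 (edgeR, adjusted p = 0.0648). Over the same days the cortex and hippocampus markers had a median difference of 1.12 and the choroid plexus markers one of -4.41. In the day 1 CSDS libraries the choroid plexus marker Ttr stood at 7639, 16.6 and 376 CPM, far higher in replicate 1. With both scores as covariates the value for Fos was 1.86 (adjusted p = 0.186).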

How the results depend on the processing

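Counts of members called moved with the tool more than with the scaling; where a value changed below, the cause was not tested. With DESeq2, 1 member was called on day 1, 2 on day 4, 2 in the mean of 4 days, 1 in the F test of the response and 2 in the response of day 10 minus day 1. Without a filter on low counts the counts were 1 on day 1, 2 in the mean, 1 in the F test and 2 in day 10 minus day 1. With the marker scores as covariates they were 2 on day 4, 0 in the mean, 3 in controls of day 4 minus day 1 and 0 in the response of day 10 minus day 1, and the libraries of day 4 alone gave 1. The replicate block called 0 members in the mean (Fos -0.73, adjusted p = 0.0573) and 0 in the response of day 10 minus day 1 (Fos 1.82, adjusted p = 0.0648). Deviations of same-numbered CSDS and control libraries of a day had r from -0.423 to 0.181, with 2 of 12 pairs above 0.1 and 3 of 12 best with their own number. Those 3 were the pairs of day 1, at 0.172, 0.181 and 0.0943. With 3 libraries a group, these values do not settle whether the numbers pair the libraries. limma on FPKM called 0 in the mean at each pseudocount and filter, and 0 in day 10 minus day 1 without a filter. When 1 library was left out, the range was 0 to 2 members in the mean, 3 to 4 in controls of day 4 minus day 1 and 0 to 2 in the response of day 10 minus day 1.

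Signs turned for the following values, most of them near 0. With the covariates, Fosb was 0.031 on day 1, Jund 0.069 on day 7, and the response of day 10 minus day 1 was -0.41 for Fosb, -0.20 for Fosl2 and -0.075 for Jund. The mean for Jund was -0.00090 with RLE scaling and -0.0011 with DESeq2, and Junb in CSDS libraries of day 10 minus day 1 was 0.0039 and 0.0042. With 1 library left out, Jund ran from -0.048 to 0.060 on day 1, -0.075 to 0.049 on day 7, -0.0085 to 0.10 on day 10 and -0.021 to 0.015 in the mean. In CSDS libraries of day 10 minus day 1, Fos ran from -0.27 to 0.085 and Junb from -0.13 to 0.12. The response minus that of day 1 ran from -0.38 to 0.010 for Fosb at day 4. At day 7 it ran from -0.35 to 0.029 for Fosl2, -0.058 to 0.17 for Jun and -0.087 to 0.034 for Jund. At day 10 it ran from -0.17 to 0.24 for Fosb and -0.023 to 0.13 for Jund.

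Counts of all genes called differed widely: DESeq2 called 25, 72, 11 and 135 genes on days 1, 4, 7 and 10, where edgeR called 1, 20, 1 and 30. The libraries of each day alone gave 8, 6 and 0 on days 4, 7 and 10, and the covariates gave 2, 41 and 3 on days 1, 4 and 10. On day 10 the replicate block gave 9 genes, and 1 when fitted within the day. DESeq2 called 57 genes in the mean (edgeR 21), 198 in the F test of the response (4), and 15, 12 and 416 in the response of days 4, 7 and 10 minus day 1 (0, 0 and 81). With 1 library left out edgeR called 12 to 26 genes in the mean, 1 to 20 in the F test, 1 to 45 on day 10 and 17 to 132 in the response of day 10 minus day 1. The lowest count of a member in any library was 122, for Fosb. No scaling moved the median of all genes by over 0.1.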
